A study of Arabidopsis thaliana with 72 samples.

Results

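SPX1 (AT5G20150), SPX2 (AT2G26660), SPX3 (AT2G45130) and SPX4 (AT5G15330) are the Arabidopsis thaliana genes for small proteins that consist mainly of an SPX domain. They were taken by gene ID and make up 4 of the 33602 genes in the deposited RPKM table (RPKM is the reads of a gene per kilobase of its length, scaled to the library total). RNA came from roots of 8-day-old seedlings grown on plates with phosphate (+Pi) or without it (-Pi), both with sucrose and set with either agar or agarose, and which of these a library had is not labelled. The wild type was Col-0 (Col). Of the mutants, 5 carried a single mutation (phr1, phl1, phl2, phl3 or phl4), 4 combined phr1 with a phl mutation (phr1phl1, phr1phl2, phr1phl3, phr1phl4), and phr1phl1phl2 (the triple mutant) and phr1phl1phl2phl3 (the quadruple mutant) combined more. Each of the 12 genotypes on each medium had 3 libraries, which gives 24 groups and 72 libraries. The labels name no allele and carry no complemented line. The series calls the replicates biological but does not say what was grown or harvested apart, so the p-values measure the spread between these libraries.

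The SPX domain binds inositol pyrophosphates, signalling molecules whose level follows the phosphate status of the cell. With the ligand bound, SPX proteins hold PHR1 and its PHL relatives, MYB-type transcription factors, away from the P1BS element in the promoters of phosphate starvation genes. When phosphate runs short the ligand falls, the factors are released, and several SPX genes are themselves among the genes they activate, which closes a feedback loop. SPX1 and SPX2 are nuclear inhibitors of PHR1, SPX3 restrains starvation responses, and SPX4 acts while phosphate is plentiful and is the member not known for induction by starvation.

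Whole reads could be recovered from the RPKM of every gene with at least 6 values above 0 (25607 genes) and gave between 11.1 M and 40.5 M reads per library. The root genes SHR, SCR, CASP1, COBL9 and PIN2 were detected in all 72 libraries, at 9.24 RPKM or more. PHR1 read 1.62 to 5.86 RPKM in libraries with phr1 in the label and 15.8 to 27.7 in the others, and PHL1 and PHL2 also separated by label without overlap. PHL3 did not follow its label. Libraries without phl3 in the label held 3.99 to 15.6 RPKM of it, the phl3 libraries 6.31 to 16.3, the quadruple ones 5.45 to 16.4 and the phr1phl3 ones 1.93 to 3.87. PHL4 read 2.73 to 5.02 RPKM with phl4 in the label and 3.21 to 18.7 without it. Results for phl3, phl4, phr1phl4 and the quadruple mutant are therefore those of the libraries so labelled. The libraries stood apart in 3 classes, formed from the slopes of their values on exon length, GC and adenine. There were 35 libraries in class 1 (19 -Pi, 16 +Pi), 20 in class 2 (17 -Pi, 3 +Pi) and 17 in class 3, none of them -Pi. Without phosphate, Col, phr1, phr1phl1 and the triple mutant lay wholly in class 1, and phl2, phl3 and phr1phl3 wholly in class 2. With phosphate, phl2, phl3, phr1phl1 and the quadruple mutant lay wholly in class 3, while replicate 1 of Col was of class 2 and its other replicates of class 1. Values from a fit that adds the class as a term, an alternative chosen after the data were seen, stand below wherever the term ends a call or moves it by more than 1.5 times, and the part of the class in those results was not tested.

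All 4 genes lie on the plus strand with 3 exons each and overlap no annotated gene. In TAIR10.1, the RefSeq assembly used here for sequence (the submitters' processing notes name TAIR10), SPX1 spans chr5:6802282-6803655 and encodes 256 residues, SPX2 spans chr2:11338752-11340950 and encodes 287, SPX3 spans chr2:18606410-18607853 and encodes 245, and SPX4 spans chr5:4980374-4982231 and encodes 318 or 387 in its 2 transcripts. The longest run of bases that any pair shared in their exons, on either strand, was 11 to 17 bases, so no long stretch is common to their reads. The windows shown here are the 250 bases before each annotated start, on the plus strand, because the P1BS letters GNATATNC (N is any base; the fixed letters read the same on both strands) bear on which members PHR1 could bind. They are chr5:6802032-6802281 for SPX1, chr2:11338502-11338751 for SPX2, chr2:18606160-18606409 for SPX3 and chr5:4980124-4980373 for SPX4, and capitals mark the GNATATNC letters.
SPX1: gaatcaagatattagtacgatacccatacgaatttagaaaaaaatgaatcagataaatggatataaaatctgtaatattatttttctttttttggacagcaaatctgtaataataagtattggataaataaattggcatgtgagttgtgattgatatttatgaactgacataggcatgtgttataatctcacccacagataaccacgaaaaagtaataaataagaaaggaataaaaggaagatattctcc
SPX2: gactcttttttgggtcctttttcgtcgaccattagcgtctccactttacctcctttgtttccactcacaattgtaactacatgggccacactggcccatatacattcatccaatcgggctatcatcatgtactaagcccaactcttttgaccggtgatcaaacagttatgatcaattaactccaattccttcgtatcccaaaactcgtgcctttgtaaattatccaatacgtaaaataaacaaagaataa
SPX3: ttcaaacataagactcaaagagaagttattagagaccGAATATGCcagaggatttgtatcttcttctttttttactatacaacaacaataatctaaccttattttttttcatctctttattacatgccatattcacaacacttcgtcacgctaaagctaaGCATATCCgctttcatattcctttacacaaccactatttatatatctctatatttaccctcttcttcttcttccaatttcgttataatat
SPX4: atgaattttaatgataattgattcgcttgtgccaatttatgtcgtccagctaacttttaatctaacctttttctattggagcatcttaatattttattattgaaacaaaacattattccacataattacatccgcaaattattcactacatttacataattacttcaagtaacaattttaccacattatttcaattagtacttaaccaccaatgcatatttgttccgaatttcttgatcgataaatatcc
SPX1 from the start on: cagagaaaaaaGGATATTCtaattagaaac
SPX3 held the letters at 2 places, with first bases 213 and 90 bases before the start. SPX1 held them once, beginning at base 23 counted from the start on, and the last line shows the 30 bases around it (chr5:6802293-6802322). SPX2 and SPX4 held none in the 300 bases from 250 before the start to 50 from the start on. Of 27443 promoters of protein-coding genes cut the same way, 6.25% held the letters at least once and 0.299% held them at 2 or more places. In the 1000 bases before the start, a window added after the data were seen, SPX1 held 1 match (first base 735 before the start), SPX2 none, SPX3 2 and SPX4 1 (338 before the start), against 20.3% of all promoters with at least 1. A match is a match of letters, and these data hold no measure of binding. All distances count from the TAIR10.1 starts. The RPKM rests on lengths of 1086, 1111 and 1252 bases for SPX1, SPX2 and SPX4. Their exons in TAIR10.1 cover 1206, 1291 and 1366 bases, while for SPX3 both lengths are 916. Whether the starts behind the RPKM differ as well was not tested.

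In Col, phosphate withdrawal raised SPX3 the most, then SPX1 and SPX2, and SPX4 was the member with the lower values without phosphate. SPX1, the abundant nuclear inhibitor, read 17.6, 25.6 and 23.2 RPKM in the 3 +Pi libraries and 832, 756 and 737 in the 3 -Pi libraries. SPX2 read 22.9, 17.8 and 19.9 RPKM with phosphate and 67.5, 60.3 and 57.1 without it. SPX3 read 0.322, 1.27 and 1.18 RPKM with phosphate and 662, 652 and 637 without it. For these 3 genes every -Pi library lay far above every +Pi library. SPX4 read 10.4, 5.13 and 8.63 RPKM with phosphate and 3.36, 3.65 and 4.29 without it, also without overlap. In limma's fit of log2(RPKM + 1), where a call takes both a Benjamini-Hochberg adjusted p below 0.05 and a log2 fold change of 1 or more in size, 14.4% of the 21206 genes tested were called in the Col response. SPX1 rose by 5.08 ± 0.22 (log2 fold change ± SE, adjusted p = 3.58e-26), a ratio of mean RPKM of 35.1. SPX2 rose by 1.57 ± 0.21 (adjusted p = 1.83e-08), a ratio of 3.05. SPX3 rose by 8.44 ± 0.20 (adjusted p = 5.34e-38). Its +Pi level is the least certain, since it rested on 2 to 35 reads per library over all +Pi groups (median 8), where 2 reads have a 95% Poisson interval of 0.242 to 7.22 that covers counting error only. On the recovered reads with limma-voom, the SPX3 change was 9.70. SPX4 changed by -0.88 ± 0.17 (adjusted p = 2.31e-05), which misses the call on size, and passed it with a pseudocount of 0.1 (-1.02), on the recovered reads (-1.09) and without Col +Pi replicate 2 (-1.14). In whole-root RNA, fewer cells with a transcript and less transcript per cell cannot be told apart.

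**Figure D1:**
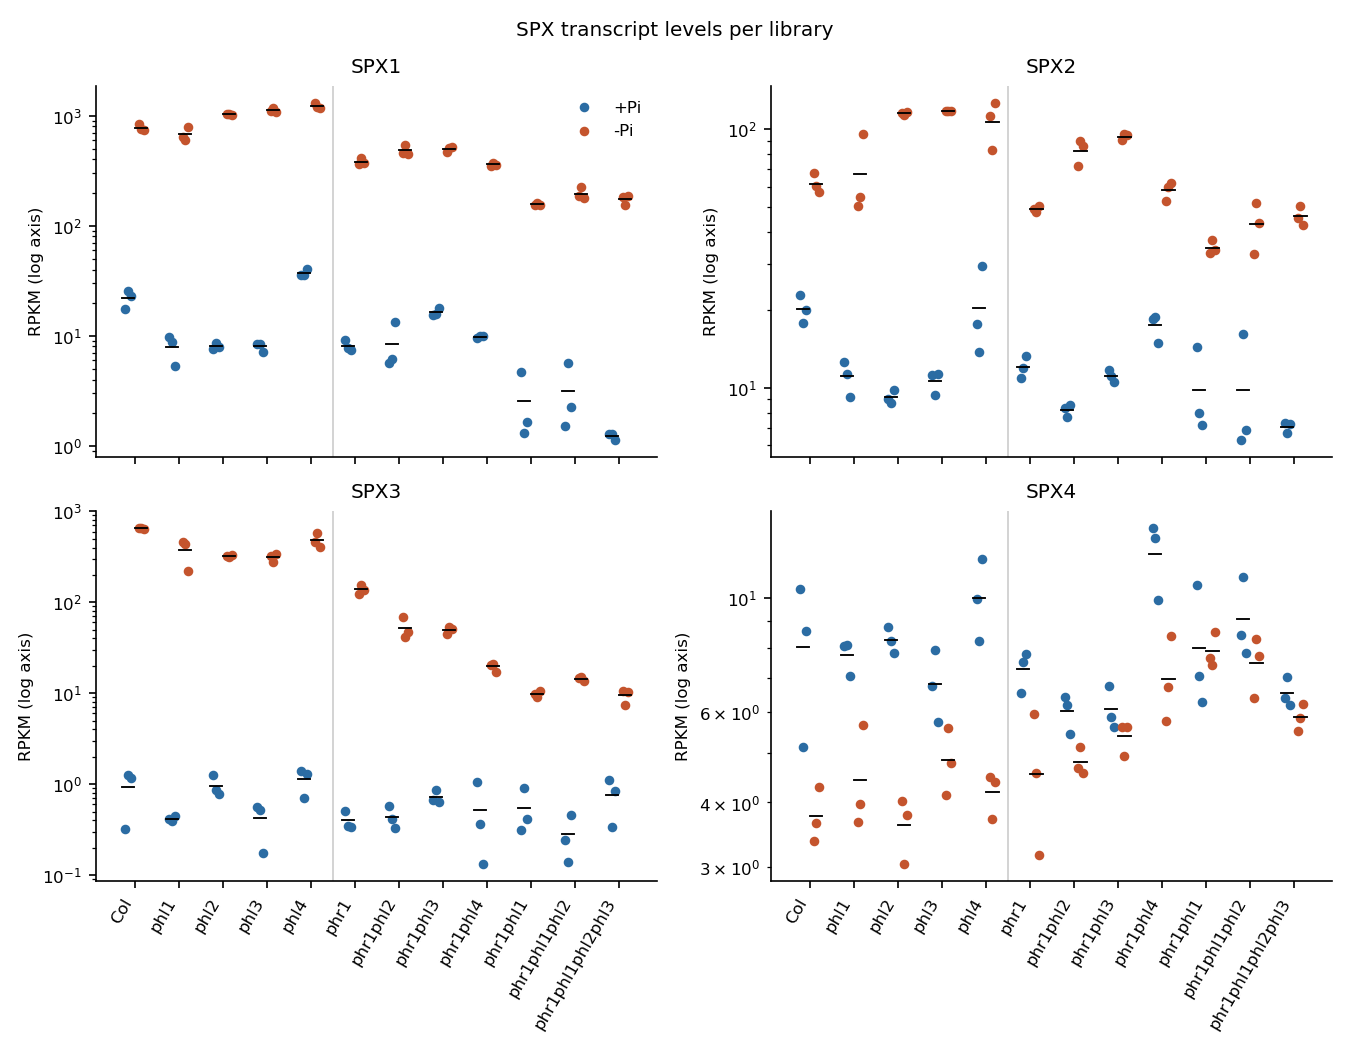
RPKM of each SPX gene in every library (points; log axis), by genotype and medium, with group means as black bars and the genotypes with phr1 in the label to the right of the grey line. SPX3 without phosphate lies at 222 to 662 RPKM in every library left of the line and at 7.39 to 155 in every library right of it.

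SPX1, SPX2 and SPX3 were called higher without phosphate in all 12 genotypes, the quadruple mutant included, and SPX4 was called in 2, so 38 of the 48 changes were called, 36 of them higher. On the log2(RPKM + 1) scale the SPX3 change was 2.58 to 6.64 in the 7 genotypes with phr1 and 7.38 to 8.44 in the other 5, while that of SPX1 was 4.85 or more throughout. The gap between phr1 and phl2 rests on that scale. On the recovered reads SPX3 changed by 8.38 in phr1 and 8.36 in phl2, and the ratio of mean RPKM was 348 and 335. In phl4, phl3 and phl1 the recovered reads gave 8.80, 9.60 and 9.65, with ratios of 427, 745 and 898. For SPX1 the log2 change ran from 4.85 in phr1phl3 to 6.96 in phl3 and was 5.40 in phr1, 5.59 in phr1phl1, 5.68 in the triple and 6.28 in the quadruple mutant, beside 5.08 in Col. In the triple mutant SPX1 went from 1.53, 5.72 and 2.27 RPKM to 185, 223 and 178, and in the quadruple mutant from 1.29, 1.29 and 1.14 to 182, 153 and 185. Both ends of the SPX1 range were thus lower than in Col, with a ratio of means of 61.6 and 140 against 35.1.

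For SPX2 the log2 change ran from 1.57 in Col to 3.51 in phl2. It exceeded 3 in phl2, phl3 (3.36) and phr1phl2 (3.18), 3 genotypes in which 8 of the 9 -Pi libraries were of class 2 and 8 of the 9 +Pi libraries of class 3. In phr1, whose 6 libraries were all of class 1, SPX2 rose by 1.95. In phr1phl3, with -Pi libraries of class 2 but +Pi libraries of class 1, it rose by 2.97. In phr1phl1 and the quadruple mutant, whose +Pi libraries were all of class 3, it rose by 1.79 and 2.54.

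For SPX3 the log2 change was 6.64 in phr1, 5.19 in phr1phl2, 4.88 in phr1phl3, 3.81 in phr1phl4, 3.59 in the triple mutant, 2.82 in phr1phl1 and 2.58 in the quadruple mutant. In the 4 single phl mutants it was 7.38 to 7.98. On the recovered reads the values were larger, from 3.70 in the quadruple mutant, 4.29 in phr1phl1 and 5.73 in the triple mutant to 6.85 in phr1phl2, below the 8.36 to 9.70 of Col and the single mutants. In phr1phl1 SPX3 still went from 0.314, 0.899 and 0.415 RPKM to 9.69, 9.07 and 10.5, without overlap.

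SPX4 was called lower in phl2 (-1.01 ± 0.17, adjusted p = 1.12e-06) and phl4 (-1.08 ± 0.17, adjusted p = 5.71e-07). Neither call is firm. That of phl2 was missed without phl2 +Pi replicate 1 or -Pi replicate 2 (the smallest value was -0.92), and that of phl4 without phl4 +Pi replicate 3 (-0.96) and when libraries were rescaled by their median ratio (-0.99). In phr1phl1, phr1phl2, phr1phl3, the triple and the quadruple mutant the log2 change of SPX4 ran from -0.28 to 0.01, and for example in phr1phl1 it read 10.6, 7.06 and 6.26 RPKM with and 7.64, 7.40 and 8.60 without phosphate. The adjusted p in these 5 genotypes was 0.155 to 0.962. Between lay phr1phl4 (-0.73, adjusted p = 0.000511), phl1 (-0.70, adjusted p = 0.000627), phr1 (-0.60, adjusted p = 0.00358) and phl3 (-0.42, adjusted p = 0.0264). All of these missed the call on size.

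The share of all tested genes called in the same responses was 11.3% in phr1, 12.7% in phl1, 31.1% in phl2, 30.8% in phl3 and 11.4% in phl4. It was 13.9% in phr1phl1, 22.0% in phr1phl2, 24.4% in phr1phl3, 9.26% in phr1phl4, 14.4% in the triple and 21.0% in the quadruple mutant. The median log2 change of all genes in the 12 responses ran from -0.07 to 0.25, small beside the changes of SPX1, SPX2 and SPX3.

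**Figure D2:**
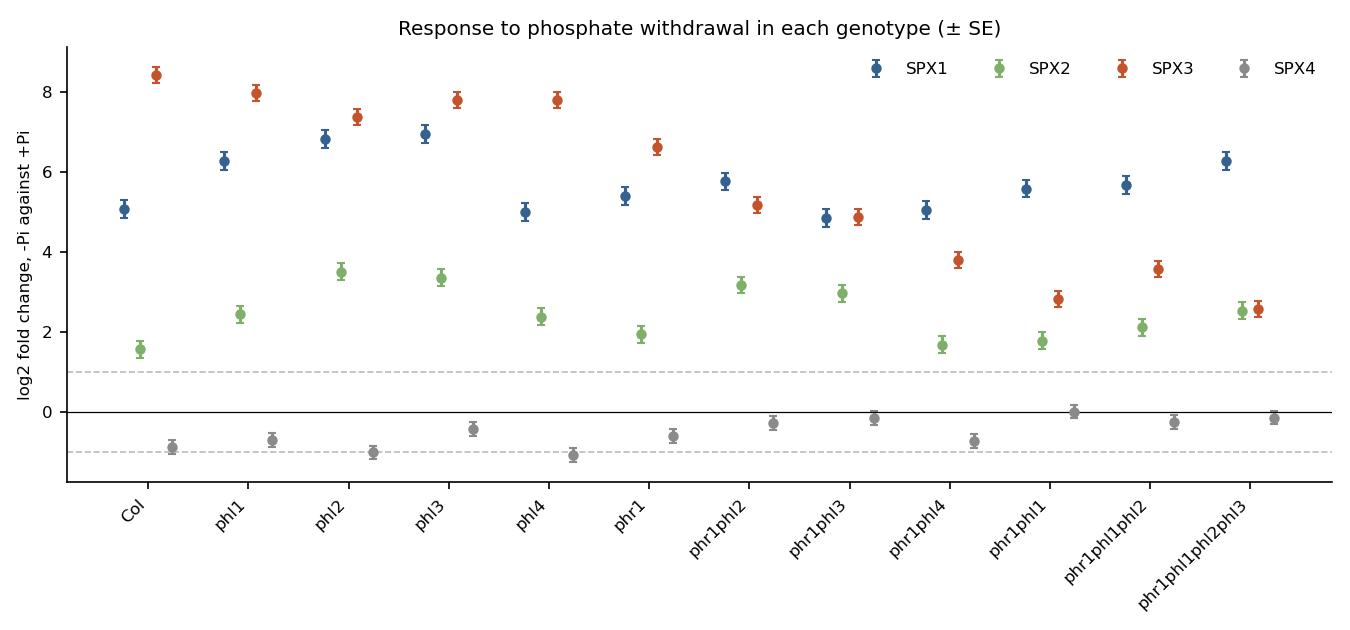
Log2 fold change (-Pi against +Pi) of each SPX gene in each genotype, points with SE from limma, with dashed lines at the fold a call needs. SPX1 stays between 4.85 and 6.96 throughout, while SPX3 runs from 8.44 in Col to 2.58 in the quadruple mutant.

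Testing the responses against that of Col, as an interaction of genotype and medium, called 16 of 44 differences, 8 for SPX3, 4 for SPX1 and 4 for SPX2. The SPX3 response was smaller than in Col, with a log2 difference of -5.87 ± 0.29 in the quadruple mutant, -5.62 in phr1phl1, -4.85 in the triple mutant, -4.63 in phr1phl4, -3.57 in phr1phl3, -3.25 in phr1phl2 and -1.81 in phr1. Each of these 7 stayed called with library class as a term. That of phr1 (adjusted p = 4.27e-06) was not called with a pseudocount of 0.1 (-1.36, adjusted p = 0.0881) or on the recovered reads (-1.33, adjusted p = 0.173), and the +Pi level that enters it rests on a few reads per library. The SPX3 response was also smaller in phl2 (-1.07, but -0.49 and not called with the class term; -0.82 as the smallest value without 1 library, and not called without Col +Pi replicate 1 or phl2 +Pi replicate 1).

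The called differences of SPX1 and SPX2 were larger responses than in Col, and all 8 were lost with the class term. For SPX1 they were 1.19 in phl1 (0.85 with the term), 1.75 in phl2 (0.72), 1.87 in phl3 (0.85) and 1.19 in the quadruple mutant (0.19). That of phl1 was also not called in a fit of the compared groups alone (adjusted p = 0.195) or without phl1 replicate 3 of either medium (the smallest value was 0.96), and that of the quadruple mutant was larger on the recovered reads (1.95) and with a pseudocount of 0.1 (1.87). For SPX2 they were 1.95 in phl2 (0.91 with the term), 1.79 in phl3 (0.76), 1.61 in phr1phl2 (0.86) and 1.40 in phr1phl3 (0.73). The SPX1 response in phr1, phr1phl1, phr1phl2, phr1phl3, phr1phl4 and the triple mutant differed from that of Col by -0.24 to 0.69, each with an SE of 0.32 and an adjusted p of 0.06 to 0.968. Without 1 library the phr1phl2 difference ran from 0.48 to 1.04 and that of the triple mutant from 0.30 to 1.00, called at the upper end without phr1phl2 +Pi replicate 3 and triple +Pi replicate 2. Adding the class term put phr1phl2 at 0.00, the triple mutant at -0.06 and phr1phl1 at -0.50 (0.50 without the term), none called. For SPX4 the largest difference was 0.89 ± 0.24 in phr1phl1 (adjusted p = 0.00263), called on the recovered reads (1.11), with a pseudocount of 0.1 (1.04) and without Col +Pi replicate 2 or phr1phl1 +Pi replicate 1 (up to 1.15). The class term gave 0.77. In the quadruple mutant SPX2 (0.98) and SPX4 (0.75) were not called, and with the class term they were 0.27 (adjusted p = 0.391) and 0.52. Without 1 library SPX2 ran from 0.89 to 1.06 and SPX4 from 0.56 to 1.00, both called without Col +Pi replicate 2 and SPX2 also without Col -Pi replicate 1 or quadruple -Pi replicate 3, on the recovered reads (1.09) and with a pseudocount of 0.1 (1.08). SPX2 was not called in phl1 (0.88) or phl4 (0.82), with 0.42 and 0.49 under the class term. Without 1 library these ran from 0.60 to 1.05 and from 0.59 to 1.12, called without phl1 -Pi replicate 1 and phl4 +Pi replicate 3.

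Of all genes, the share called in these interactions was 5.67% for phr1, 8.76% for phl1, 35.1% for phl2, 32.7% for phl3, 9.97% for phl4 and 17.8% for phr1phl1. It was 30.2% for phr1phl2, 34.7% for phr1phl3, 14.9% for phr1phl4, 16.4% for the triple and 30.3% for the quadruple mutant. These comparisons share the 6 Col libraries.

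Against Col without phosphate, SPX3 was the member that differed most. It was called in 9 of 11 mutants and SPX1 in 5, all lower than in Col, while SPX2 and SPX4 were called in none (14 of 44 values in all). SPX3 read 123, 155 and 138 RPKM in phr1 and 9.69, 9.07 and 10.5 in phr1phl1, beside 637 to 662 in Col. It read 14.6, 15 and 13.6 RPKM in the triple mutant and 10.7, 7.39 and 10.2 in the quadruple mutant. The 4 genotypes lie in separate ranges from Col, and the 3 that carry both phr1 and phl1 lie far below every phr1 library. The log2 fold change was -2.23 ± 0.20 in phr1 (adjusted p = 5.12e-13), -5.92 in phr1phl1 (adjusted p = 9.01e-31), -5.40 in the triple and -5.98 in the quadruple mutant. As a share of the Col mean, SPX3 stood at 21.3% in phr1, 1.5% in phr1phl1, 2.21% in the triple and 1.45% in the quadruple mutant. Of the -Pi libraries behind these values, 1 of the quadruple mutant is of class 2 and every other is of class 1.

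The other double mutants lay between. SPX3 read 69.5, 41.4 and 47.2 RPKM in phr1phl2 (log2 -3.63), 45.2, 53.5 and 50.5 in phr1phl3 (-3.68) and 20.6, 21.1 and 17.3 in phr1phl4 (-4.98). None of these libraries reached the lowest phr1 library. Among single phl mutants the differences were smaller. In phl2 (-1.01) and phl3 (-1.06) SPX3 was called, but with the class term the values were -0.58 and -0.63 and neither was called. Both calls were also missed without phl2 -Pi replicate 2 and phl3 -Pi replicate 2 respectively, that of phl2 also without Col -Pi replicate 1 (-0.99 and -0.97 were the smallest values). In phl1 SPX3 read 465 and 437 RPKM in the libraries of class 1 and 222 in replicate 3, of class 2, with a log2 change of -0.87 ± 0.20 that was not called, ran from -1.06 (called, without phl1 replicate 1 or 2) to -0.53 (without replicate 3), and was -0.72 with the class term. In phl4 it was -0.45, and -0.16 with the class term.

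SPX1 read 155, 160.3 and 154 RPKM in phr1phl1, all below the 737 to 832 of Col. Its log2 fold change was -2.30 ± 0.22 in phr1phl1 (adjusted p = 1.49e-12), -2.16 in the quadruple mutant, -1.99 in the triple mutant, -1.10 in phr1phl4 and -1.02 in phr1 (adjusted p = 0.000595). The phr1 value fell short of a call without Col -Pi replicate 1 or phr1 -Pi replicate 1 (-0.97 as the smallest). As a share of Col, SPX1 kept 49.1% in phr1 and 20.2% in phr1phl1, where SPX3 stood at 21.3% and 1.5%. In phl2, phl3 and phl4 SPX1 read higher than in Col by 0.41, 0.53 and 0.66 log2 units, with no overlap of libraries and no call.

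SPX2 differed from Col by -0.80 to 0.93 log2 units over the 11 mutants. The upper values belong to genotypes with -Pi libraries of class 2, and with the class term they were 0.43 in phl3 (0.93 without it), 0.39 in phl2 (0.90), 0.43 in phl4 (0.77), 0.10 in phr1phl3 (0.60) and 0.08 in phr1phl2 (0.41), while phr1phl4 went from -0.08 to -0.41. Its lowest mean was 34.8 ± 2.20 RPKM in phr1phl1 and its highest 118 ± 0.202 in phl3, against 61.6 ± 5.34 in Col (mean ± SD). SPX4 read higher in several genotypes where SPX3 was low. It stood at 7.64, 7.40 and 8.60 RPKM in phr1phl1, above all 3 Col libraries (3.36 to 4.29), and its log2 fold change was 0.90 ± 0.17 (adjusted p = 1.81e-05), which was called with a pseudocount of 0.1 (1.05) and on the recovered reads (1.08). The values were 0.83 in the triple mutant, 0.73 in phr1phl4 and 0.53 in the quadruple mutant, with adjusted p of 0.00787 or less and no call.

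Of all tested genes, 3.10% were called against Col without phosphate in phr1, 0.250% in phl1, 15.1% in phl2, 13.8% in phl3, 8.66% in phl4 and 11.5% in phr1phl1. The share was 14.4% in phr1phl2, 20.3% in phr1phl3, 18.9% in phr1phl4, 12.4% in the triple and 17.1% in the quadruple mutant. In phr1, with 2 of 4 members called, and in phr1phl1, with 2 of 4, this stands beside 3.10% and 11.5% of genes.

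**Figure D3:**
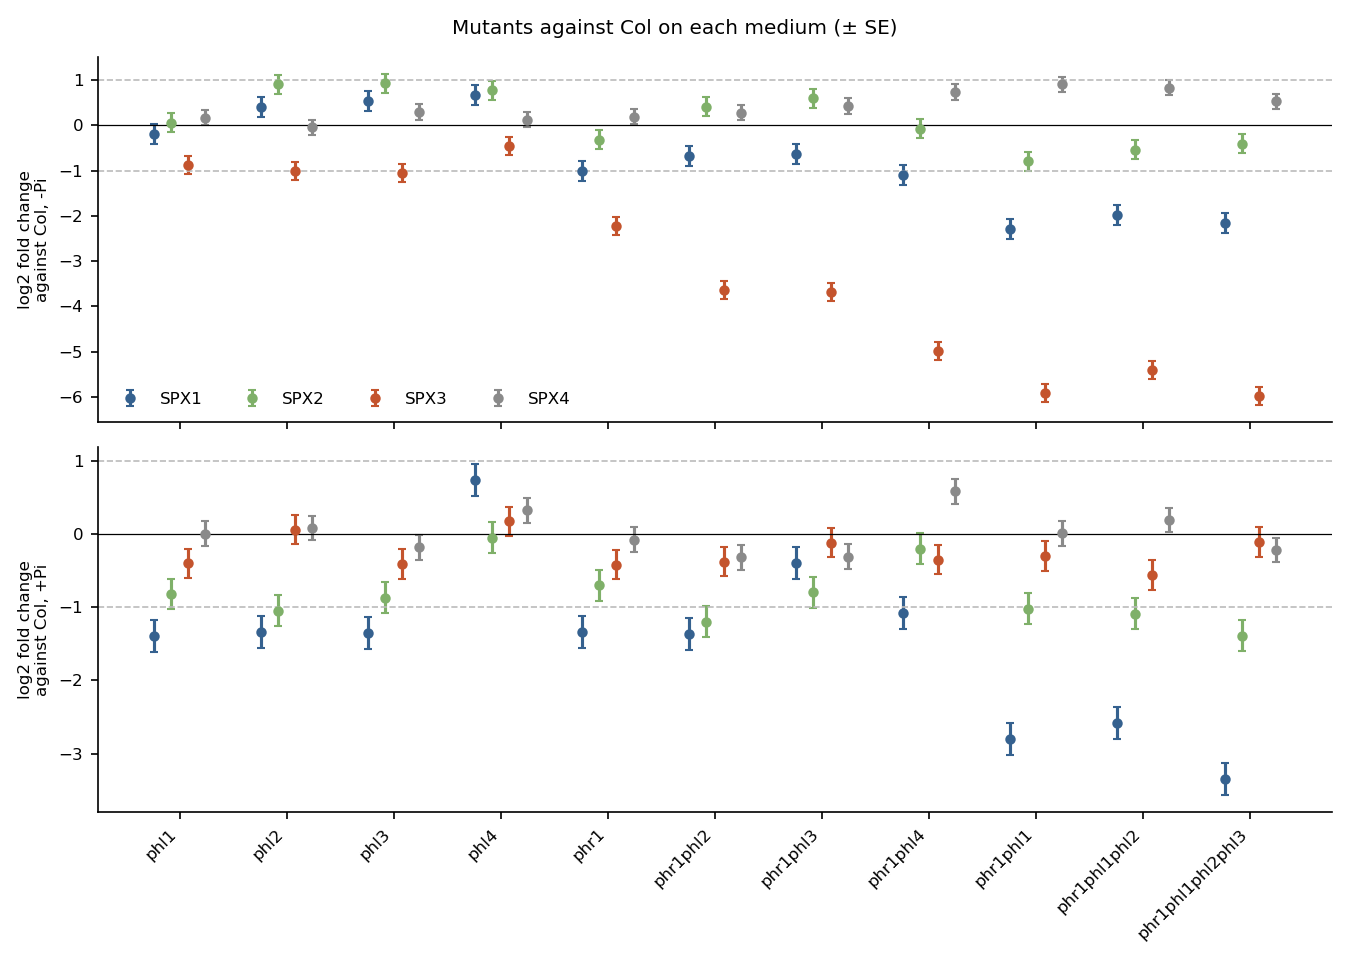
Log2 fold change of each SPX gene against Col (points with SE from limma), without phosphate (upper panel) and with phosphate (lower panel), for the 11 mutants, with dashed lines at the fold a call needs. Without phosphate SPX3 runs down to -5.98, and with phosphate SPX1 runs down to -3.35 while SPX3 stays between -0.56 and 0.17. The Col level of SPX3 with phosphate is too low for a call below Col.

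Steps between mutants compare genotypes whose labels differ by further mutations, and in some steps the library class differs as well. Without phosphate 18 of 48 values over 12 steps were called, all lower in the genotype with more mutations, 10 of them for SPX3, 7 for SPX1 and 1 for SPX2. Adding phl1 to phr1 changed SPX3 by -3.69 ± 0.20 log2 units (adjusted p = 1.46e-21) and SPX1 by -1.28 ± 0.22 (adjusted p = 8.12e-06), where 8.03% of genes were called. Adding phl4, phl3 or phl2 to phr1 changed SPX3 by -2.75, -1.46 and -1.41, all called. With the class term these values were -2.47, -1.03 and -1.12, still called. In the same steps SPX1 changed by -0.08, 0.39 and 0.34, none called (12.2%, 13.4% and 6.86% of genes). Adding phr1 to a phl mutant changed SPX3 by -5.05 in phl1, -4.53 in phl4 and -2.63 in phl2 and in phl3, and SPX1 by -2.10, -1.76, -1.09 and -1.16, all called. The shares of genes called in those 4 steps were 10.1% for phl1, 8.83% for phl4, 4.74% for phl2 and 5.33% for phl3.

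The step from phr1phl1 to the triple mutant called no member and 0.156% of genes, with log2 changes of 0.31 for SPX1, 0.27 for SPX2, 0.52 for SPX3 (adjusted p = 0.481) and -0.07 for SPX4. The step from the triple to the quadruple mutant likewise called none, with 0.637% of genes and -0.57 for SPX3 (adjusted p = 0.145). From phr1phl2 to the triple mutant SPX1 changed by -1.30 and SPX3 by -1.77, both called, with 7.46% of genes. From phr1phl3 to the quadruple mutant the changes were -1.52 for SPX1, -2.29 for SPX3 and -1.01 for SPX2, all called, with 6.12% of genes. The SPX2 call was missed with the class term (-0.68) and without quadruple -Pi replicate 3 (-0.96). SPX2 also changed by -0.87 from phl1 to phr1phl1, by -0.85 from phl4 to phr1phl4 and by -0.95 from phr1phl2 to the triple mutant, 3 steps not called that were called without phl1 replicate 1 (-1.04), phl4 replicate 2 (-1.02) and either phr1phl2 replicate 1 or triple replicate 2 (up to -1.10). The smallest values without 1 library were -0.58, -0.72 and -0.78, and those with the class term -0.70, -0.85 and -0.61.

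A pair of mutations can lower a gene by more than the sum of the single effects, which was tested without phosphate as the change that phlN made in phr1 minus that in Col. For phr1 with phl1 this non-additivity was -2.83 ± 0.29 log2 units for SPX3 (adjusted p = 2.96e-11) and -1.08 ± 0.32 for SPX1 (adjusted p = 0.0135), where 5.98% of genes were called. The SPX1 value was not called with a pseudocount of 0.1 (adjusted p = 0.0503) or without phl1 -Pi replicate 3 (-0.97). For phr1 with phl4 it was -2.31 ± 0.29 for SPX3 (adjusted p = 1.58e-08) and -0.74 ± 0.32 for SPX1 (adjusted p = 0.188), with 3.34% of genes called. For phr1 with phl2 or phl3 no member was called, with -0.40 for SPX3 in both and 0.745% and 0.887% of genes. All 3 calls stayed with the class term. SPX2 and SPX4 values ran from -0.55 to 0.53 over the 4 pairs.

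**Figure D4:**
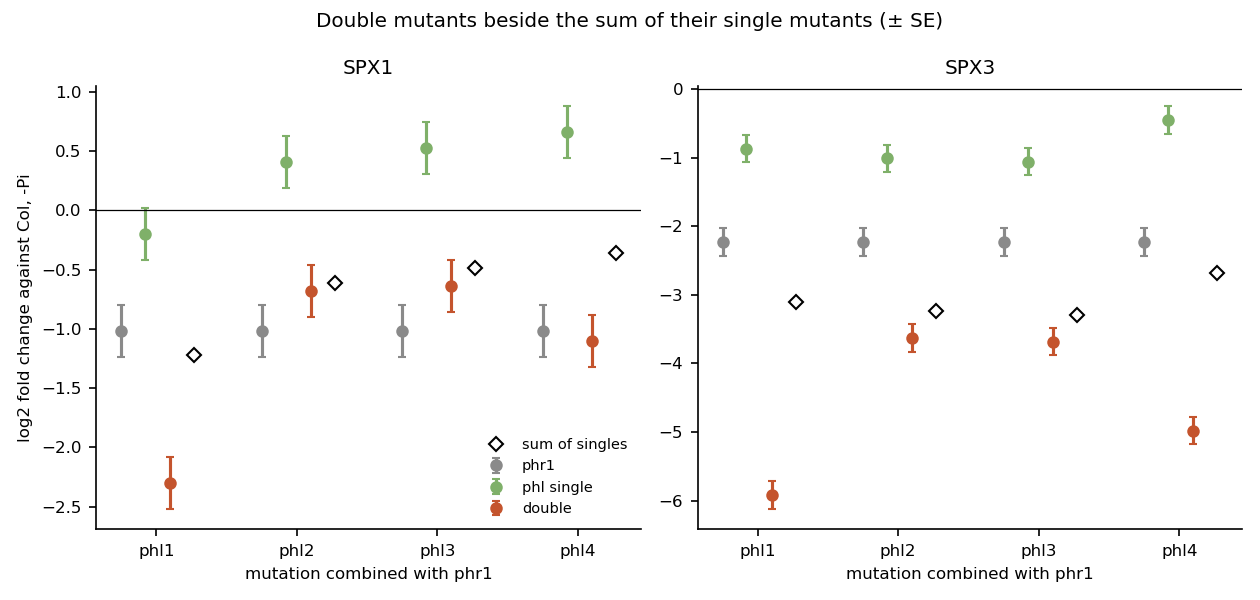
Log2 fold change against Col without phosphate for SPX1 (left) and SPX3 (right) in phr1, in each single phl mutant and in the double mutant (points with SE from limma), with the sum of both singles as an open diamond. The double mutant lies below the sum for SPX3 with phl1 and phl4, at -5.92 and -4.98.

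With phosphate SPX1 was the member called most often against Col, while SPX3 lay too low in Col to be called lower on this scale. SPX1 was called in 9 of 11 mutants, SPX2 in 5, SPX3 and SPX4 in none, and all 14 calls were lower than Col. SPX1 read 17.6, 25.6 and 23.2 RPKM in Col, 9.07, 7.70 and 7.42 in phr1, 4.69, 1.31 and 1.66 in phr1phl1 and 1.29, 1.29 and 1.14 in the quadruple mutant. The genotypes are apart from Col in every library. Its log2 fold change was -3.35 ± 0.22 in the quadruple mutant (adjusted p = 3.78e-17), -2.80 in phr1phl1, -2.58 in the triple mutant and -1.34 in phr1. In phl4 SPX1 read 35.5, 35.6 and 40.3 RPKM, above every Col library, with a log2 fold change of 0.74 ± 0.22 and no call. In phr1phl3 it read 15.6, 15.8 and 17.8, which overlapped Col (-0.40).

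These +Pi calls depend on the fit. Only 6 of the 14 were called with the class term and 8 in fits of the compared groups alone. With the class term SPX1 was -0.34 in phl2, -0.35 in phl3 and -0.70 in phr1phl2, none called (-1.34, -1.35 and -1.37 without the term), and -1.81 in phr1phl1, still called. In fits of the compared groups alone the adjusted p of SPX1 was 0.0655 in phr1, 0.142 in phl1, 0.0742 in phr1phl2 and 0.114 in the triple mutant. The SPX1 value in phl1 was -1.39 and in phr1phl4 -1.08, the last not called without Col +Pi replicate 2 (-0.97).

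SPX2 was called in the quadruple mutant (-1.39), phr1phl2 (-1.20), the triple mutant (-1.09), phl2 (-1.05) and phr1phl1 (-1.02). With the class term none of these 5 was called, at -0.85, -0.79, -0.84, -0.52 and -0.49. Rescaling by median ratio also ended the calls in phl2 (-0.94) and phr1phl1 (-0.92), and fits of the compared groups alone ended those in phr1phl1 (adjusted p = 0.0775) and the triple mutant (adjusted p = 0.406). Leaving out Col +Pi replicate 1 ended the calls in phl2 (-0.96 as the smallest), phr1phl1 and the triple mutant. The last 2 were also ended without phr1phl1 replicate 2 or 3 (-0.85) and without triple replicate 1 or 3 (-0.86). In the triple mutant SPX2 read 6.29 and 6.86 RPKM in the libraries of class 3 and 16.1 in that of class 2.

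The levels of SPX3 with phosphate, 0.131 to 1.38 RPKM over 36 libraries, overlapped between all neighbouring genotypes when these were ordered by mean. Its difference from Col ran from -0.56 to 0.17 and was past a log2 of 1 in the triple mutant with a pseudocount of 0.1 (-1.34, adjusted p = 0.00746). The Col mean was 0.925 RPKM, so on the log2(RPKM + 1) scale even a full loss falls short of the fold a call needs. A loss of SPX3 with phosphate could therefore not be called in any mutant. As a share of that mean SPX3 ran from 30.3% in the triple mutant to 121.9% in phl4, at a few reads per library. SPX4 ran from 6.02 ± 0.516 RPKM in phr1phl2 to 12.2 ± 2.02 in phr1phl4, against 8.04 ± 2.66 in Col.

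The share of all genes called against Col with phosphate was 2.45% in phr1, 4.02% in phl1, 11.3% in phl2, 10.7% in phl3, 1.65% in phl4 and 8.53% in phr1phl1. It was 5.95% in phr1phl2, 2.51% in phr1phl3, 5.60% in phr1phl4, 5.78% in the triple and 7.59% in the quadruple mutant. Over the 12 steps between mutants with phosphate, 5 of 48 values were called, all of SPX1 and all lower, beside 4.21% of genes. They were -2.95 from phr1phl3 to the quadruple mutant (-1.96 with the class term), -1.82 from phl4 to phr1phl4, -1.46 from phr1 to phr1phl1, -1.41 from phl1 to phr1phl1 and -1.21 from phr1phl2 to the triple mutant. With the class term those from phr1 (-0.48) and from phl1 (-0.75) to phr1phl1 were not called. In fits of the compared groups alone those from phl1 (adjusted p = 0.188) and from phr1phl2 (adjusted p = 0.398) were not called, and the last was also missed without triple +Pi replicate 1 or phr1phl2 +Pi replicate 3 (-0.86). SPX1 in phr1phl3 read higher than in phr1 (0.94) and in phl3 (0.95), neither called, though both passed on the recovered reads (1.03 and 1.04) and with a pseudocount of 0.1 (1.01 and 1.02), the first also without phr1 +Pi replicate 1 (1.02). With the class term the difference from phr1 was 0.94 and that from phl3 was -0.04 (adjusted p = 0.959), where phr1phl3 is wholly of class 1 and phl3 wholly of class 3 on this medium. From the triple to the quadruple mutant the SPX1 difference was -0.77 and not called. It ranged from -1.07 (called, without triple +Pi replicate 1) to -0.36 without 1 library, and was -1.21 on the recovered reads and -1.08 with a pseudocount of 0.1, both called, but -0.43 with the class term and of adjusted p = 0.46 when the 2 groups were fitted alone. The pseudocount of 0.1 also called SPX3 in the steps from phl4 to phr1phl4 (-1.25) and from the triple to the quadruple mutant (1.15), both at a few reads per library.

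Taking the 7 genotypes with phr1 in the label against the other 5, SPX3 without phosphate read 7.39 to 155 RPKM (median 20.6, 21 libraries) against 222 to 662 (median 406, 15 libraries), with no overlap. SPX1 read 153 to 537 RPKM (median 357) against 606 to 1305 (median 1028), also with no overlap. SPX2 overlapped, at 33.0 to 95.5 against 50.6 to 127, and so did SPX4, at 3.16 to 8.60 against 3.03 to 5.65. The contrast of the means called SPX3 (-3.87 ± 0.08) and SPX1 (-1.69 ± 0.09) without phosphate, where 5.98% of genes were called. With phosphate it called SPX1 (-1.18 ± 0.09), where 0.0472% of genes were called, although SPX1 overlapped at 1.14 to 17.8 against 5.27 to 40.3 RPKM. All 3 calls held with the class term, and the contrast measures these genotypes against the spread between libraries.

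Because RPKM is per length, the members can also be set beside each other. Summed over the 4 genes, Col went from 51.3 ± 1.59 RPKM with phosphate to 1490.5 ± 66.3 without it, and phr1phl1 from 20.9 ± 7.86 to 209 ± 4.72. In Col with phosphate the sum was 43.2% SPX1, 39.4% SPX2, 15.6% SPX4 and 1.81% SPX3. Without phosphate it was 52.0% SPX1, 43.7% SPX3, 4.13% SPX2 and 0.254% SPX4. In phr1phl1 without phosphate it was 74.9% SPX1, 16.7% SPX2, 4.68% SPX3 and 3.78% SPX4. SPX1 was thus the largest share in every genotype without phosphate, from 52.0% in Col to 80.9% in phr1phl4, and SPX3 the second largest only in Col, phr1 and the single phl mutants. With phosphate the SPX1 share fell to 11.3% in phr1phl1, 13.2% in the triple and 7.95% in the quadruple mutant, where SPX2 (42.1% to 46.7%) and SPX4 (38.9% to 43.2%) made up most of the sum. These shares were not tested.

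**Figure D5:**
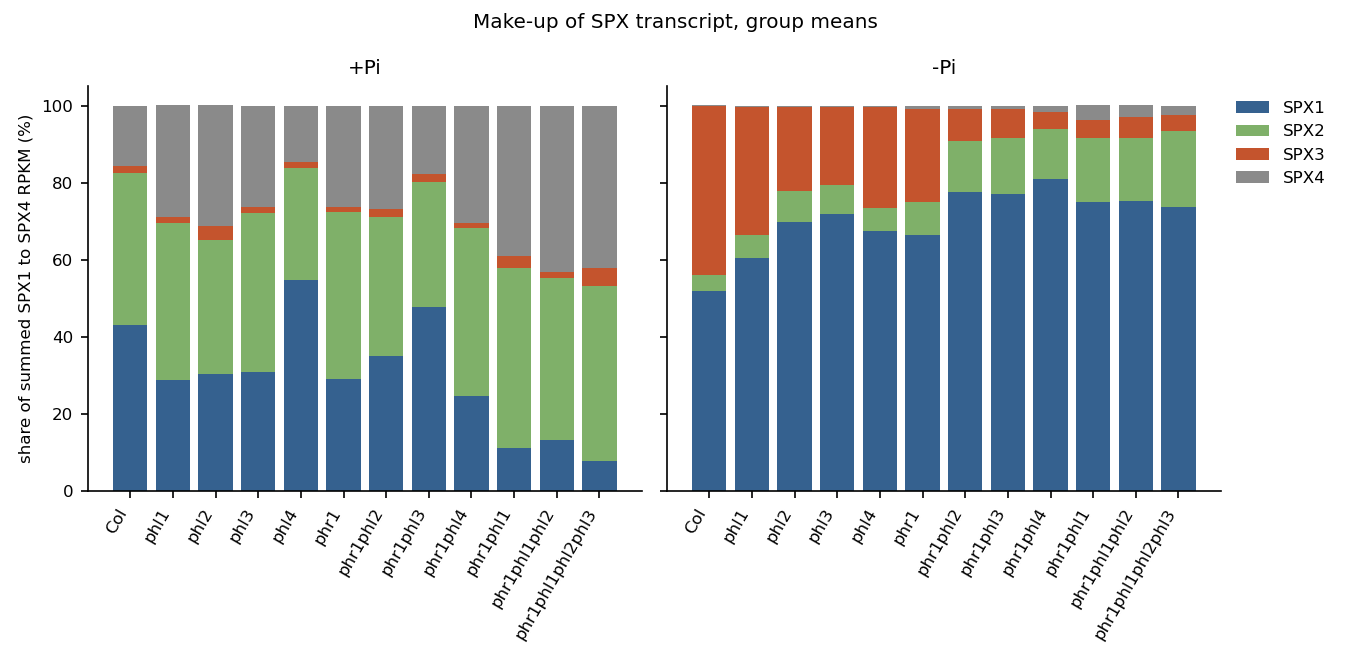
Share of each SPX gene in the summed RPKM of the 4 genes (stacked bars of group means, %), with phosphate (left) and without it (right), for the 12 genotypes. SPX3 makes up 43.7% in Col without phosphate and 4% in the quadruple mutant.

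How far neighbours in the order of the levels stood apart differed by gene. Without phosphate SPX1 was highest in phl4 (1224 ± 72.4 RPKM) and lowest in phr1phl1 (156 ± 3.56), and 6 of 11 neighbouring pairs in that order overlapped. SPX3 was highest in Col and lowest in the quadruple mutant (9.45 ± 1.80 RPKM), with 5 of 11 overlapping. SPX2 overlapped in 8 of 11 pairs, and SPX4, from 7.88 ± 0.632 in phr1phl1 to 3.62 ± 0.524 in phl2, in all 11. With phosphate SPX1 ran from 37.1 ± 2.74 RPKM in phl4 to 1.24 ± 0.0897 in the quadruple mutant with 8 of 11 pairs overlapping. SPX2 ran from 20.3 ± 8.20 in phl4 to 7.06 ± 0.350 in the quadruple mutant, also with 8 of 11, and SPX4 overlapped in all 11. Overlap here means only that the ranges of the libraries met, and the order was not tested.

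The members also differed in how they followed each other over the 24 group means of log2(RPKM + 1), which share the split by medium. SPX1 had a Pearson r of 0.978 with SPX2 and 0.933 with SPX3, and SPX4 had -0.720, -0.679 and -0.836 with SPX1, SPX2 and SPX3. Over the 12 -Pi groups alone the values were 0.887 for SPX1 with SPX2, 0.919 for SPX1 with SPX3, 0.662 for SPX2 with SPX3 and -0.900 for SPX3 with SPX4. The genes most like SPX1 over 24 groups were PAP17, a purple acid phosphatase (r = 0.989), APC2, a mitochondrial carrier (0.985), and AT1G08310 (0.985). Those most like SPX2 were VTC4, an inositol and galactose phosphate phosphatase (0.994), AT1G23140 (0.990) and AT3G44510 (0.983). For SPX3 they were AT5G17340 (0.993), AT1G49900 (0.990) and UGP3, which makes UDP-glucose for sulfolipid (0.988), and for SPX4 AT1G21920 (0.947), AT4G19860 (0.946) and AT4G31450 (0.942).

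Over the 12 -Pi groups the closest genes were others. They were the phosphatases PECP1 (0.996) and PS2 (0.985) and the galactolipid synthase MGD3 (0.985) for SPX1, and VTC4 (0.987), AT5G10130 (0.980) and MYB70 (0.979) for SPX2. For SPX3 they were NPC4, a phospholipase C (0.995), PLL3 (0.994) and the phosphate transporter PHT1;8 (0.992), and for SPX4 AT4G13030 (0.966), GT2 (0.965) and AT5G63250 (0.963). The r values describe group means that share genotypes and library classes. AT5G17340 read 2.30 RPKM in Col with phosphate, 371 without it and 14.3 in phr1phl1 without it, the same order as SPX3.

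Other genes of the pathway were read from 4 lists. Of all tested genes, 14.4% were called in the Col response and 11.5% in phr1phl1 against Col without phosphate. Of 16 other proteins with an SPX domain (the PHO1, PHT5 and NLA families), 12 passed the filter on low values, and in the Col response 4 were called higher and 1 lower, with a median log2 change of 0.01 beside 0.02 for all genes. PHO1;H7 rose by 2.53 ± 0.29 and PHO1;H1, a phosphate exporter, by 1.99 ± 0.18. In phr1phl1 against Col without phosphate 1 was called higher and 2 lower, with PHO1;H1 at 7.72 ± 0.394 against 101 ± 3.11 RPKM (log2 -3.55) and NLA, a RING-type ubiquitin ligase, at 17.7 ± 2.78 against 5.63 ± 0.984 (1.49).

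The 5 PHR1 family genes were not called in the Col response, where 14.4% of all genes were called. PHL2 changed by 0.94 ± 0.16 (adjusted p = 2.6e-06), from 17.6 ± 3.45 to 34.3 ± 2.63 RPKM, and missed the call on size. PHL3 changed by -0.62 ± 0.26. In phr1phl1 against Col without phosphate PHR1 was called lower (-2.21 ± 0.14) and PHL3 read 0.96 ± 0.26 higher, not called. Of the 12 enzymes that make or break inositol pyrophosphates, 4 were called higher and 1 lower in the Col response. Their median log2 change was 0.49 beside 0.02 for all genes, and the largest changes were those of the phosphatases PFA-DSP4 (2.56 ± 0.32) and PFA-DSP2 (2.07 ± 0.16). Without phosphate 1 was higher and 2 lower in phr1phl1 (median -0.28), PFA-DSP4 by -1.96 and PFA-DSP2 by -1.53, where 11.5% of all genes were called. Of 20 starvation markers 18 were called higher in the Col response (median 3.78), with IPS1, a non-coding RNA that sequesters miR399, at 9 ± 0.31 and PECP1 at 7.82 ± 0.21, a range that holds the SPX3 value of 8.44. In phr1phl1 without phosphate 17 of the 20 were called lower than in Col and 1 higher (median -2.74 beside 0.09 for all genes), IPS1 by -5.97 and PECP1 by -5.71, close to the -5.92 of SPX3.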

How the data were processed

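RNA-seq libraries from roots of 12 genotypes on 2 media (72 libraries, 3 per group) were grouped by their labels. The authors deposited 1 table of RPKM values for 33602 genes. The submitters' processing notes name TopHat, edgeR and the TAIR10 build, with no versions or roles, and counting, strand and gene models are not given in the sources used here. Values were tested on the log2(RPKM + 1) scale in 1 limma fit (version 3.58.1, R 4.3.3, trend and robust) of 72 libraries with 24 group means, for the 21206 genes that reached 1 RPKM in 3 or more libraries. P-values were adjusted by Benjamini-Hochberg over all genes tested, and a call needs an adjusted p below 0.05 and an absolute log2 fold change of 1 or more. RPKM is not a count, so no count model was the main test, and a fold change on this scale understates the change of low genes. The value of 1 read could be read from the low values of each gene and library, which gave whole reads (tolerance 0.005) for 100% of the 25607 genes with at least 6 values above 0, and a depth of 11.1 M to 40.5 M reads (median 22.96 M).

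Alternatives were a pseudocount of 0.1, no filter on low values, rescaling by median ratio, the replicate number as a block, fits restricted to the groups compared and the omission of single libraries in turn. A class term, limma-voom on the recovered reads (21204 genes) and a longer promoter window were chosen after the data were seen. The 4 genes are named in every group, with the 3 genes of highest Pearson r over 24 groups and over the 12 -Pi groups, and the 2 genes of each of 4 pathway lists (53 genes, 49 tested) with the largest absolute change in the Col response and in phr1phl1 against Col without phosphate. The members and the lists were chosen with earlier results of these data known. On simulated data made like phr1phl1 against Col without phosphate (21206 genes), 94.5% to 96.5% of 200 changed genes were recovered over 5 draws. At most 4 others were called. Recovery was not tested for comparisons with phosphate or for groups that differ in library class. Loci and sequences come from RefSeq's TAIR10.1, which holds 32827 of the 33602 gene IDs. Poisson intervals cover counting error only. Tables and figures used Python 3.11.15, numpy 2.4.6, pandas 2.3.3, scipy 1.17.1, scikit-learn 1.9.0 and matplotlib 3.10.9.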

Additional observations from a re-analysis of the deposited data

Results flagged for a closer look

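Of 44 tests of a mutant's response to phosphate withdrawal against that of Col, limma's interaction term called 16, and each is listed here because the responses of 2 genotypes differed (log2 units, mutant minus Col). Of all tested genes, the same interactions called 35.1% in phl2, 34.7% in phr1phl3, 32.7% in phl3, 30.3% in the quadruple mutant and 30.2% in phr1phl2. The share was 17.8% in phr1phl1, 16.4% in the triple mutant, 14.9% in phr1phl4, 9.97% in phl4, 8.76% in phl1 and 5.67% in phr1. For SPX3 the difference was -5.87 in the quadruple mutant, -5.62 in phr1phl1, -4.85 in the triple mutant, -4.63 in phr1phl4, -3.57 in phr1phl3, -3.25 in phr1phl2, -1.81 in phr1 and -1.07 in phl2. With the class term that of phl2 was -0.49 and not called. That of phr1 was not called on the recovered reads (-1.33).

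For SPX1 the difference was 1.87 in phl3, 1.75 in phl2, 1.19 in phl1 and 1.19 in the quadruple mutant. With the class term these were 0.85, 0.72, 0.85 and 0.19, none called. For SPX2 it was 1.95 in phl2, 1.79 in phl3, 1.61 in phr1phl2 and 1.40 in phr1phl3, and 0.91, 0.76, 0.86 and 0.73 with the class term, none called. The +Pi libraries of phl2, phl3 and the quadruple mutant were all of class 3, which holds no Col library, so for these the class moves with the genotype. Its part in the result was not tested beyond that fit. All 16 share the 6 Col libraries.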

How the results depend on the processing

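None of the 111 called values changed sign under an alternative tried, while 51 of the 189 values that were not called did, among them the SPX1 and SPX2 differences of response of phr1phl1 (0.50 and 0.22, but -0.50 and -0.32 with the class term). Of 38 calls in the responses, 14 against Col without phosphate, 18 in the steps without phosphate, 3 for non-additivity and 3 for phr1 genotypes, every alternative kept the count within 1.5 times. Against Col with phosphate the 14 calls became 8 in fits of the compared groups alone and 6 with the class term. The 5 calls in the steps with phosphate became 10 with a pseudocount of 0.1, 8 on the recovered reads, 3 in fits of the compared groups alone and 3 with the class term. The 16 differences of response became 7 with the class term. Leaving out each library in turn gave 37 to 39, 12 to 15, 17 to 19 and 2 to 3 calls for the first 4 of these, 11 to 14 against Col with phosphate, 4 to 6 in the steps with phosphate and 15 to 19 differences of response, and of 2112 single values 24 lost and 19 gained a call. Without the filter no call changed.

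The replicate block left all 300 values on their side of the threshold, with 38, 14, 14, 18, 5, 16, 3 and 3 calls as without it. The numbers do not pair the libraries by label, and in 58 comparisons of 2 groups same-numbered libraries deviated together (all 3 correlations over 0.1) in 2 and every library was closest to its own number in 1. Rescaling by median ratio ended 3 calls. In some comparisons it moved the median of all genes by over 0.1, for example from 0.25 to 0.055 in the response of the quadruple mutant. In others it moved it little, for example from 0.023 to 0.006 in the Col response. Spelled GAATATNC, the motif was found once in the 300-base window of SPX1 and once in that of SPX3, and in 3.82% of promoters.

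SPX3 with phosphate rests on 2 to 35 reads per library, so its folds against that level are the least certain. Class and medium overlap, and phl2, phl3 and phr1phl3 share no -Pi class with Col, so there the class and the genotype cannot be told apart except through groups that hold more than 1 class.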
